A study of Mus musculus with 24 samples.

Results

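The genes described here encode the amino acid transporters of 7 solute carrier families, Slc1a, Slc3a, Slc6a, Slc7a, Slc36a, Slc38a and Slc43a. They were chosen by symbol alone, from probe sets annotated to 1 gene, and a gene with several probe sets was read from the one whose mean over the 24 arrays was highest. That rule found 63 of the 18193 genes measured: 7 Slc1a, 2 Slc3a, 21 Slc6a, 16 Slc7a, 5 Slc36a, 9 Slc38a and 3 Slc43a genes. Of the 63, 60 are transporter genes, and 3 (Slc36a1os, Slc6a19os and Slc7a6os) are genes named for the strand opposite a transporter gene. The rule also covers other genes, which were not analysed here.

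Total RNA of mouse lung tissue was measured on Affymetrix mouse genome arrays, 1 array per sample. The tumours were nodules dissected by eye from animals that carried a pair of transgenes and ate a doxycycline diet for 3 to 6 months. They formed 3 groups by the epidermal growth factor receptor (EGFR) transgene: L858R (n = 4, labelled C/L858R), L858R+T790M (n = 5, C/L+T) and T790M (n = 5, C/T790M). L858R is an activating change of the EGFR kinase, and T790M is a change of the same kinase that is known for resistance to EGFR inhibitors. The labels do not spell out the transgene written C, nor its promoter. The normal lungs came from littermates with no transgene or with 1 of them, which also received doxycycline. One set of 5 carries the strain label FVB (FVB normals) and another set of 5 the label FVB mixed (mixed-strain normals). L858R tumours carry the label FVB mixed, and the L858R+T790M and T790M tumours the label FVB, so a tumour group's own normals are those that share its label. The labels name no animal, sex, batch or date, and do not say that each array is a separate mouse, so the spread behind the p-values may be technical in part.

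Amino acid transporters move amino acids across the plasma membrane and the membranes of organelles. Some, such as the Slc38a and Slc1a carriers, are driven by the sodium gradient, the Slc36a carriers are driven by protons, and the Slc7a light chains exchange one amino acid for another. Most of the light chains reach the membrane only when joined to a heavy chain, Slc3a2 (4F2hc, CD98) or Slc3a1 (rBAT). Several of these genes are known targets of ATF4, the transcription factor made when amino acids run short, and amino acids carried in by them are sensed by the kinase complex mTORC1. The families were named by sequence, so they also hold carriers of other substrates: Slc6a includes the carriers of noradrenaline, serotonin, dopamine, creatine and taurine, and Slc43a3 carries purine nucleobases.

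Values are log2 signals normalized by RMA, and differences are given as log2 values ± SE. A gene was called when its Benjamini-Hochberg adjusted p, from limma fitted to all 24 arrays and 18193 genes, was under 0.05. Array medians lay between 7.21 and 7.34. Of 6 alveolar type 2 markers measured, 5 were called higher in each tumour group, and Sftpc, the surfactant protein C gene, read 14.66 or above on every array. All 8 endothelial markers were called lower in each tumour group. T790M replicate 1 stood nearest to the normal lungs among the tumours in the endothelial markers, with a mean level of 11.06 against 8.38 to 10.01 in the other T790M tumours. In bulk tissue, fewer cells of a type and less RNA per cell cannot be told apart.

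The promoters of 3 transporter genes are shown because Slc38a2 and Slc36a1 were higher in all 3 tumour groups and because Slc7a11, the cystine transporter xCT, is a gene whose probe sets disagreed. Each sequence is the 250 bases upstream of the start site, 5' to 3' on the gene's strand, from RefSeq with build GRCm38.p6. Capitals mark matches to either of the motifs searched on both strands, TGATGNAA (the composite site of ATF4 and C/EBP) and TGACNNNGC (the antioxidant element bound by NRF2). The motifs share no matched bases here.
Slc38a2, chr15:96699729-96699978, minus strand: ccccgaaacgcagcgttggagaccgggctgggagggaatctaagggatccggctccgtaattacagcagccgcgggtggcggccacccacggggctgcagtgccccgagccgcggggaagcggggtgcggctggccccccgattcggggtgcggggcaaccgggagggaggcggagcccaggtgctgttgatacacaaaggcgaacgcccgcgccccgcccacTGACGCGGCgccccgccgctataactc
Slc36a1, chr11:55204090-55204339, plus strand: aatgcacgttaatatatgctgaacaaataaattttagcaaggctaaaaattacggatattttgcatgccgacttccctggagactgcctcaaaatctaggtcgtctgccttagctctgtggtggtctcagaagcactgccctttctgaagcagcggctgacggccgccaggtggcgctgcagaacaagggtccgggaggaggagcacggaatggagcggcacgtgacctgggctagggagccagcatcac
Slc7a11, chr3:50443614-50443863, minus strand: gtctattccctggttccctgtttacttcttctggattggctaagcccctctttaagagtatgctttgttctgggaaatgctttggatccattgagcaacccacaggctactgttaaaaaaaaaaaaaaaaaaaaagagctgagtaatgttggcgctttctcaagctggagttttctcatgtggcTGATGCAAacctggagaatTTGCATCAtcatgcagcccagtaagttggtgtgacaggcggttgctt
The Slc38a2 stretch held 1 antioxidant match, TGACGCGGC, the Slc36a1 stretch none (its match in the longer window lies after the start), and the Slc7a11 stretch 2 matches to the composite, TGATGCAA and its reverse complement TTGCATCA. Windows of 300 bases, 250 before and 50 after a start, were given for 46 of the 63 genes, 67 windows in all. The composite was found in 5 of these windows (7.46%), in Slc1a4, Slc6a21, Slc7a7 and Slc7a11, and in 3.97% of all 32851 windows. None of those 4 genes was called by the probe set used. The Slc7a7 windows that held it overlap, and the same TGATGCAA was counted in each. The antioxidant letters were found in 17.9% of the transporter windows and in 12.4% of all windows. Overlapping windows of Slc7a6 likewise held the same antioxidant match. Of the 10 genes that held them, 4 were called higher in some tumour group, 1 lower and 5 not at all, beside 10 higher, 10 lower and 26 not called among all 46.

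Across the families, gains and losses were mixed in every tumour group. In L858R tumours 20 of 63 genes were called, which is 31.7% of the transporter genes beside 41.4% of all genes. Of them 12 were higher and 8 lower, 19.0% and 12.7% beside 23.3% and 18.1% of all genes. In L858R+T790M tumours 21 were called, 33.3% beside 36.2%, with 9 higher and 12 lower, 14.3% and 19.0% beside 20.2% and 16.1%. In T790M tumours 18 were called, 28.6% beside 39.8%, with 5 higher and 13 lower, 7.94% and 20.6% beside 21.9% and 17.9%. Tumour and normal arrays did not overlap for 20, 15 and 16 of the 63 genes in these comparisons, 31.7%, 23.8% and 25.4% beside 35.8%, 29.8% and 29.8% of all genes. The share of calls among these genes was thus below that among all genes in each comparison, and 36 of the 63 had a mean signal below the median gene mean of 8.17. The median log2 difference of the 63 genes was 0.07, 0.05 and 0.01 in the 3 comparisons, and that of all genes 0.05, 0.03 and 0.00. Calls with at least a 2-fold difference numbered 10, 7 and 6, 15.9%, 11.1% and 9.52% of the 63, where all genes gave 10.8%, 8.45% and 8.42%.

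Of the 63 genes, 31 were called in at least 1 tumour group and none in opposite directions in different groups. Slc7a5, Slc38a2 and Slc36a1 were higher in all 3 groups, and Slc38a5, Slc43a3, Slc6a2, Slc7a10, Slc36a2, Slc3a2 and Slc38a1 lower in all 3. The L858R+T790M and T790M comparisons share the FVB normals. The scaling of the arrays touched the balance of small calls: with each array centred on its median, which raised every L858R difference by 0.07 and every T790M difference by 0.05, the split became 19 higher and 8 lower in L858R tumours and 10 higher and 10 lower in T790M tumours. The genes just named kept their calls.

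The calls fell as follows by family, to be read beside the shares of all genes just given, with no test between families. Of the 9 Slc38a genes 4 were higher and 2 lower in L858R tumours, 3 and 3 in L858R+T790M tumours and 1 and 3 in T790M tumours. Of the 16 Slc7a genes 4, 2 and 1 were higher and 1 lower in each group, and of the 21 Slc6a genes 2, 2 and 1 were higher and 1, 4 and 4 lower. Of the 5 Slc36a genes 2, 1 and 1 were higher and 1, 1 and 2 lower, and of the 7 Slc1a genes 1 was higher in L858R+T790M and T790M tumours and 1 lower in L858R+T790M tumours. Slc3a2 fell in each group, and of the 3 Slc43a genes 2, 1 and 2 fell.

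**Figure D1:**
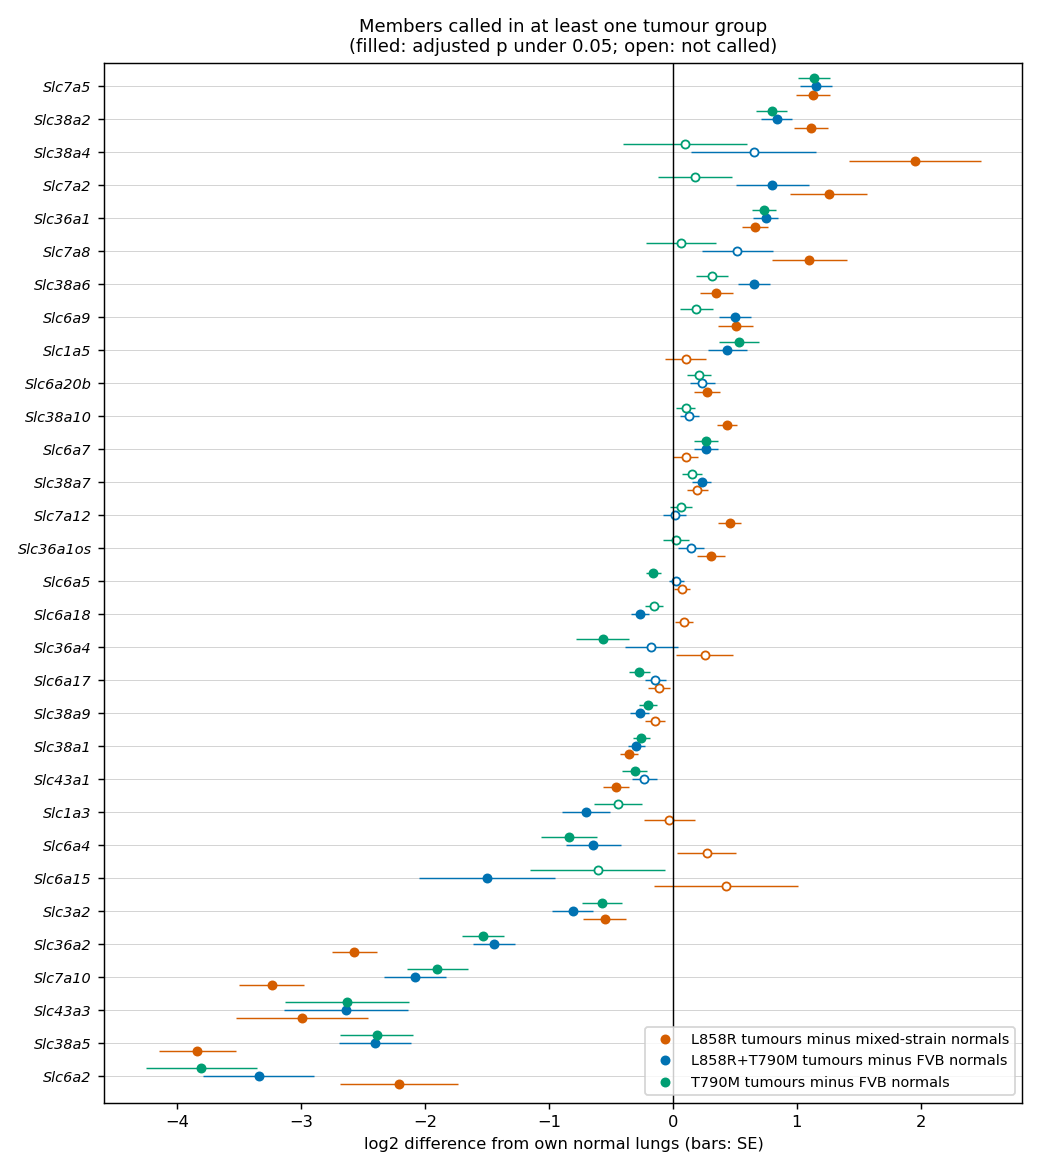
Log2 difference of each tumour group from its own normal lungs (horizontal axis, bars are SE) for the 31 transporter genes called in at least 1 group; filled points were called at an adjusted p under 0.05. Slc7a5 sits near 1.1 in all 3 groups, Slc38a4 ranges from 0.10 to 1.95, and Slc6a2, Slc38a5, Slc43a3, Slc7a10 and Slc36a2 lie between -1.45 and -3.84.

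Slc7a5 encodes LAT1, the exchanger that brings leucine and other large neutral amino acids into the cell. It rose by nearly the same amount in each group. L858R tumours read 8.86, 9.40, 9.26 and 9.54, beside 8.15, 8.10, 8.29, 8.05 and 8.09 in mixed-strain normals. L858R+T790M tumours read 9.16, 9.65, 8.93, 9.25 and 9.40 and T790M tumours 9.14, 9.61, 9.20, 9.04 and 9.32, beside 8.19, 8.10, 8.01, 8.14 and 8.18 in FVB normals. Every tumour lay above every normal lung. The differences were 1.13 ± 0.14 (2.19-fold, adjusted p = 1.15e-06), 1.15 ± 0.13 (2.23-fold, adjusted p = 6.32e-07) and 1.14 ± 0.13 (2.20-fold, adjusted p = 9.16e-07) by limma. Between L858R+T790M and T790M tumours the 95% interval of the difference ran from -0.25 to 0.28.

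Slc38a2 encodes SNAT2, a sodium-coupled carrier of small neutral amino acids such as alanine and glutamine, and a known target of ATF4. L858R tumours read 12.29, 12.26, 12.34 and 12.68, beside 11.26, 11.35, 11.18, 11.45 and 11.16 in mixed-strain normals. L858R+T790M tumours read 12.44, 12.55, 12.02, 12.36 and 12.44, and T790M tumours 12.10, 12.84, 12.12, 12.36 and 12.19, beside 11.78, 11.43, 11.38, 11.54 and 11.50 in FVB normals. Again no tumour overlapped its normals. The differences were 1.11 ± 0.13, 0.84 ± 0.13 and 0.80 ± 0.13 (adjusted p = 1.31e-06, 2.42e-05 and 4.20e-05, limma). Both other probe sets of the gene were called higher in all 3 groups too, with smaller differences; the median over the 3 probe sets gave 0.61 in L858R tumours.

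Slc36a1 encodes PAT1, a proton-coupled carrier found on lysosomes and on the plasma membrane. L858R tumours read 9.37, 9.39, 9.65 and 9.53, beside 8.81, 8.75, 8.90, 8.85 and 8.81 in mixed-strain normals. L858R+T790M tumours read 9.26, 9.39, 9.26, 9.32 and 9.51, and T790M tumours 9.06, 9.10, 9.37, 9.57 and 9.57, beside 8.41, 8.77, 8.76, 8.58 and 8.48 in FVB normals. The groups did not overlap. The differences of 0.66 ± 0.11, 0.75 ± 0.10 and 0.73 ± 0.10 had adjusted p = 3.41e-05, 5.64e-06 and 7.63e-06 (limma). Its opposite-strand gene Slc36a1os was called higher in L858R tumours (0.31 ± 0.11, adjusted p = 0.0319), with arrays that overlapped; leaving out any of L858R replicates 2 and 4 and mixed-strain normals 2 and 4 ended that call (0.24 to 0.40 with single arrays left out, adjusted p up to 0.120).

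Another set of genes rose in L858R tumours and was less even elsewhere. Slc7a2 encodes CAT2, a carrier of arginine and lysine that is known from activated macrophages and liver. L858R tumours read 10.15, 10.99, 9.71 and 10.17, above all mixed-strain normals at 8.90, 9.06, 8.92, 9.20 and 8.92. L858R+T790M tumours read 10.32, 8.51, 9.29, 10.05 and 10.71, with replicate 2 below every FVB normal (8.87, 8.85, 9.03, 9.05 and 9.08). T790M tumours read 9.10, 8.74, 9.19, 8.96 and 9.78 and overlapped them. The differences were 1.25 ± 0.31 (adjusted p = 0.00266), 0.80 ± 0.29 (adjusted p = 0.0381) and 0.18 ± 0.29 (adjusted p = 0.674, limma). The L858R call held in all 3 other probe sets. That in L858R+T790M tumours held in none of them, and was lost when any 1 of 8 of the 10 arrays was left out, namely each FVB normal and L858R+T790M replicates 1, 4 and 5 (0.57 to 0.83, adjusted p from 0.0532 to 0.124).

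Slc38a4, the gene of SNAT4, a carrier of neutral amino acids best known from liver and placenta, showed the largest rise of any transporter gene, in L858R tumours. They read 9.64, 9.69, 8.51 and 8.95, beside 6.71, 7.48, 7.98, 7.06 and 7.00 in mixed-strain normals, a difference of 1.95 ± 0.53 (3.87-fold, adjusted p = 0.00514, limma). L858R+T790M tumours spread from 6.09 to 9.59 (8.68, 6.09, 7.65, 8.49 and 9.59) and T790M tumours from 6.01 to 8.68 (6.01, 8.68, 7.13, 8.21 and 7.72), around FVB normals at 7.68, 7.48, 7.37, 7.73 and 6.99. Their differences of 0.65 ± 0.50 and 0.10 ± 0.50 were not called (adjusted p = 0.341 and 0.895). The second probe set was called higher in L858R tumours too (2.04 ± 0.63).

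Slc7a8 encodes LAT2, a relative of LAT1 with a wider choice of neutral amino acids. L858R tumours read 8.60, 8.86, 7.19 and 7.49, all above mixed-strain normals at 6.68, 6.85, 7.15, 7.08 and 6.92, and differed by 1.10 ± 0.30 (adjusted p = 0.00557, limma). The gap between replicates 3 and 4 and the highest normal was small. L858R+T790M tumours read 7.94, 6.77, 7.21, 7.31 and 8.55 and T790M tumours 6.97, 7.10, 7.11, 7.07 and 7.27, beside 7.26, 7.02, 6.68, 7.02 and 7.21 in FVB normals (0.52 ± 0.28 and 0.07 ± 0.28, adjusted p = 0.169 and 0.878).

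**Figure D2:**
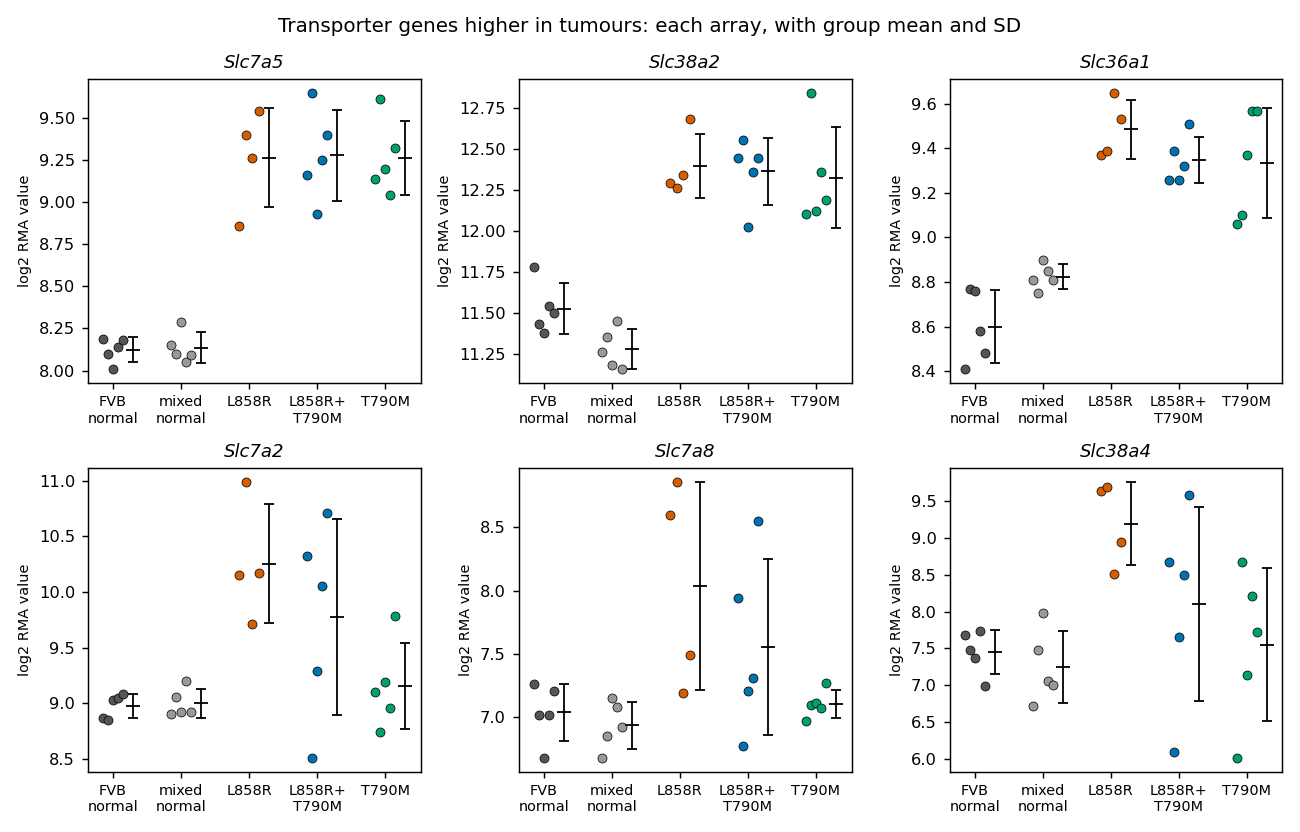
Log2 RMA value of 6 transporter genes on each of the 24 arrays, by group, with the group mean and SD beside the points; the vertical axes differ and do not start at 0. Slc7a5, Slc38a2 and Slc36a1 separate all tumours from all normal lungs, while Slc7a2, Slc7a8 and Slc38a4 are spread widely among L858R+T790M tumours, where replicate 2 is lowest in all 3 genes.

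Alveolar macrophage markers were measured beside this second set. Of 4 such markers, 3 were called higher in L858R tumours, 1 in L858R+T790M tumours and none in T790M tumours. At an unadjusted p under 0.05 by limma, 2 were higher and 1 lower in L858R+T790M tumours, and none differed in T790M tumours. Their mean log2 level was 11.09 to 11.99, 9.60 to 11.51 and 9.72 to 10.42, beside 9.52 to 10.57 in the normal lungs. The lowest L858R+T790M tumour in this level was replicate 2, which was also the lowest in Slc7a2, Slc7a8 and Slc38a4. That low level was not particular to alveolar macrophage markers. Replicate 2 was also lowest of its group in endothelial (8.55), fibroblast (9.05), ciliated (6.74), T cell (7.16) and general macrophage markers (10.41). It was not the lowest in smooth muscle and pericyte (8.61) or B cell markers (7.55), and was the highest in alveolar type 2 markers (14.30). Marco, a macrophage scavenger receptor, read 9.59 to 12.07 in L858R tumours, 9.31 to 12.11 in L858R+T790M tumours, 6.80 to 8.81 in T790M tumours and 6.32 to 7.56 in normal lungs. In L858R+T790M replicate 2 it read 9.50. T790M replicate 2, the highest T790M tumour in Slc38a4 (8.68), had a marker level of 9.78. Of 4 general macrophage markers, 1 was called higher and 1 lower in L858R tumours, none in L858R+T790M tumours and 1 lower in T790M tumours. The part of these markers in the result was not tested.

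Smaller rises were called for other transporter genes. Slc6a9, the glycine transporter GlyT1, was higher in L858R and L858R+T790M tumours without overlap (0.51 ± 0.14 and 0.50 ± 0.13, adjusted p = 0.00559 and 0.00431, limma), and differed by 0.19 ± 0.13 in T790M tumours without a call. Slc38a6, an orphan member of its family, was called in the same groups (0.35 ± 0.14 and 0.65 ± 0.13), but the L858R call was lost with any of its 9 arrays left out (0.31 to 0.36, adjusted p up to 0.0948), and the second probe set was called in neither. Slc38a10 (0.44 ± 0.08) and Slc7a12 (0.46 ± 0.10) were called in L858R tumours alone by the probe set used. The mean signal of Slc7a12 over all arrays was low, at 4.92 beside a median gene mean of 8.17. Of the 6 further Slc38a10 probe sets 3, 3 and 1 were called higher in the 3 groups. By the median over its probe sets the L858R difference of Slc38a10 was 0.16 and not called (adjusted p = 0.281, limma). Slc6a7, the brain proline carrier, rose by 0.26 and 0.27 in L858R+T790M and T790M tumours, Slc6a20b by 0.27 in L858R tumours and Slc38a7 by 0.23 in L858R+T790M tumours, all with overlapping arrays. Each of these 4 calls was lost with one or another of 4 to 7 arrays left out, with adjusted p up to 0.110, 0.105, 0.136 and 0.0928 (limma). Slc6a7 and Slc6a20b also had low mean signals, 5.94 and 6.26.

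Slc1a5 encodes ASCT2, the exchanger that carries glutamine into many tumours. FVB normals read 10.12, 9.83, 10.14, 10.01 and 10.05, and mixed-strain normals 10.78, 10.47, 10.41, 10.73 and 10.59, all above the FVB set. L858R+T790M tumours read 10.32, 10.59, 10.82, 10.47 and 10.14 and T790M tumours 10.39, 10.34, 10.32, 11.24 and 10.52. They were called higher than FVB normals (0.44 ± 0.16 and 0.53 ± 0.16, adjusted p = 0.0342 and 0.0101, limma). Compared with all 10 normal lungs neither was called, and without any of 6 of the 10 arrays (FVB normals 2, 4 and 5, L858R+T790M tumours 2, 3 and 4) the first call was lost, with adjusted p up to 0.1. L858R tumours read 10.35, 11.01, 10.59 and 10.84 and differed from their normals by 0.10 ± 0.17. The second probe set was called lower in L858R tumours (-0.46, adjusted p = 0.0114) and in no other group, so the probe sets of this gene disagree.

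The largest changes among the 63 genes were losses. Slc38a5 encodes SNAT5, a carrier of glutamine, asparagine and histidine. Mixed-strain normals read 9.94, 9.56, 8.96, 9.67 and 9.66, and L858R tumours 6.10, 5.71, 5.41 and 5.66, a difference of -3.84 ± 0.31 (14.3-fold lower, adjusted p = 1.00e-08, limma). FVB normals read 8.43, 8.74, 9.09, 8.75 and 8.09, L858R+T790M tumours 5.99, 6.06, 7.40, 5.69 and 5.94, and T790M tumours 6.77, 5.56, 6.83, 6.29 and 5.69. Those groups fell by 2.40 ± 0.29 and 2.39 ± 0.29 (adjusted p = 2.01e-06 and 2.52e-06). No tumour reached its normals; L858R+T790M replicate 3 came nearest to them.

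Slc7a10 encodes Asc-1, an exchanger of alanine, serine, cysteine and D-serine that is also used as a marker of white adipocytes. Mixed-strain normals read 10.79, 10.39, 10.28, 10.57 and 10.82, and L858R tumours 7.33, 7.17, 7.43 and 7.40 (-3.24 ± 0.26, 9.43-fold lower, adjusted p = 1.00e-08, limma). FVB normals read 9.37, 10.23, 10.21, 10.00 and 9.45, L858R+T790M tumours 7.53, 7.53, 8.93, 7.79 and 7.07, and T790M tumours 8.35, 7.90, 8.10, 7.75 and 7.65. These groups fell by 2.08 ± 0.25 and 1.90 ± 0.25 (adjusted p = 1.51e-06 and 4.68e-06). All tumours lay below all normals.

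Slc36a2 encodes PAT2, a proton-coupled carrier of glycine, proline and alanine. Mixed-strain normals read 9.77, 9.62, 9.24, 9.44 and 9.73, and L858R tumours 7.08, 7.21, 6.83 and 6.83 (-2.57 ± 0.18, 5.95-fold lower, adjusted p = 1.59e-09, limma), the lowest adjusted p of any transporter gene. FVB normals read 8.77, 8.98, 9.02, 8.88 and 9.01, L858R+T790M tumours 7.15, 7.42, 8.21, 7.28 and 7.37, and T790M tumours 7.82, 7.24, 7.64, 7.00 and 7.28. They fell by 1.45 ± 0.17 and 1.54 ± 0.17 (adjusted p = 1.35e-06 and 7.82e-07). As in Slc38a5 and Slc7a10, L858R+T790M replicate 3 was the highest of its group.

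PAT2 and Asc-1 mark adipocytes in other tissues, and adipocyte markers fell as well. Adipoq, Cidec and Car3 were called lower in each tumour group, 3 of 4 markers measured, and Ucp1, the brown fat uncoupling protein, was called higher in L858R tumours (0.42 ± 0.12) and in no other group. The mean log2 level of the 4 markers was 7.95 to 8.45 in FVB normals, 7.13 to 7.99 in mixed-strain normals, 5.33 to 6.47 in L858R, 5.10 to 5.53 in L858R+T790M and 5.17 to 7.37 in T790M tumours. T790M replicate 1 was the highest tumour in this level, and the highest T790M tumour in Slc7a10 and Slc36a2. L858R+T790M replicate 3 had the lowest marker level of all tumours and the highest Slc7a10 and Slc36a2 of its group. Their part in the result was not tested.

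Slc43a3 encodes a carrier of adenine and other purine nucleobases that belongs to this family by sequence. Normal lungs were close together, at 11.41, 11.74, 11.63, 11.85 and 11.65 in FVB normals and 11.60, 11.64, 11.57, 11.61 and 11.33 in mixed-strain normals. L858R tumours read 9.66, 8.17, 8.48 and 7.92, L858R+T790M tumours 8.76, 7.60, 10.04, 8.16 and 10.52, and T790M tumours 10.61, 8.12, 9.60, 7.69 and 9.12. All tumours fell below all normals while differing widely among themselves. The differences were -2.99 ± 0.53, -2.64 ± 0.50 and -2.63 ± 0.50 (adjusted p = 0.000105, 0.000256 and 0.000253, limma).

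Slc6a2 encodes the noradrenaline transporter, which in lung is known from endothelium and sympathetic nerves. FVB normals read 11.64, 11.61, 10.03, 10.34 and 10.04, and mixed-strain normals 10.17, 9.55, 9.56, 10.07 and 8.75. L858R tumours read 8.87, 7.36, 6.48 and 6.93, L858R+T790M tumours 7.22, 7.09, 8.67, 6.66 and 7.30, and T790M tumours 7.83, 6.52, 6.88, 6.45 and 6.95. Only L858R replicate 1 overlapped its normals. The differences were -2.21 ± 0.47, -3.34 ± 0.45 and -3.81 ± 0.45 (adjusted p = 0.000694, 5.61e-06 and 1.64e-06, limma). Its 3 other probe sets gave smaller differences, and 1 of them was not called in L858R tumours (-0.27, adjusted p = 0.085, limma). The median over the probe sets was -0.92, -1.19 and -1.47, called in each group.

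**Figure D3:**
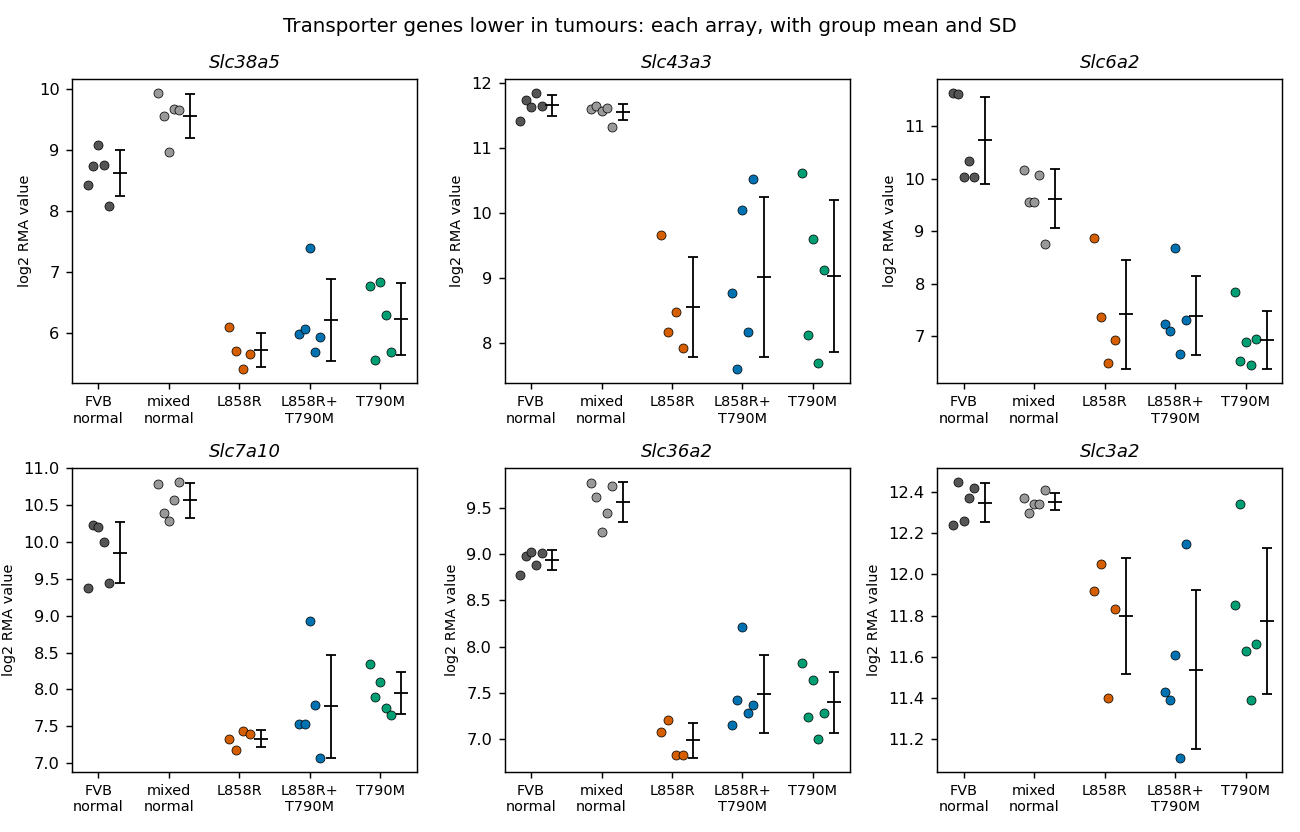
Log2 RMA value of 6 transporter genes on each of the 24 arrays, by group, with the group mean and SD beside the points; the vertical axes differ and do not start at 0. Tumours lie below their own normal lungs in every panel except for L858R replicate 1 in Slc6a2 and T790M replicate 2 in Slc3a2, and mixed-strain normals lie above FVB normals in Slc36a2.

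Endothelial markers fell with Slc43a3 and Slc6a2. The mean log2 level of 8 markers was 11.83 to 12.36 in normal lungs and 10.29, 9.13, 9.38 and 9.22 in L858R tumours. It was 9.25, 8.55, 10.72, 9.16 and 10.55 in L858R+T790M tumours and 11.06, 9.05, 10.01, 8.38 and 9.89 in T790M tumours. The tumours highest in it, T790M replicate 1, L858R+T790M replicates 3 and 5 and L858R replicate 1, were also the highest in Slc43a3 (10.61, 10.04, 10.52 and 9.66). In Slc6a2 the highest tumours were T790M replicate 1, L858R+T790M replicate 3 and L858R replicate 1 (7.83, 8.67 and 8.87). L858R+T790M replicate 5 read 7.30 there, below L858R replicate 2 at 7.36. Tek, the angiopoietin receptor of endothelium, read 6.97 to 11.04 in tumours and 12.20 to 12.74 in normal lungs. Other markers fell too. Of 6 fibroblast markers 5, 4 and 4 were called lower in the 3 groups, and of 5 smooth muscle and pericyte markers 5, 5 and 4. The tumours highest in Slc43a3, in the order given, had fibroblast levels of 10.44, 10.65, 10.80 and 10.54, beside 10.76 in T790M replicate 3. Their smooth muscle and pericyte levels were 10.16, 9.31, 9.57 and 8.98, beside 9.35 in T790M replicate 5. The part of any of these markers in the result was not tested. Without T790M replicate 1 the T790M differences were -3.02 for Slc43a3 and -4.03 for Slc6a2.

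**Figure D4:**
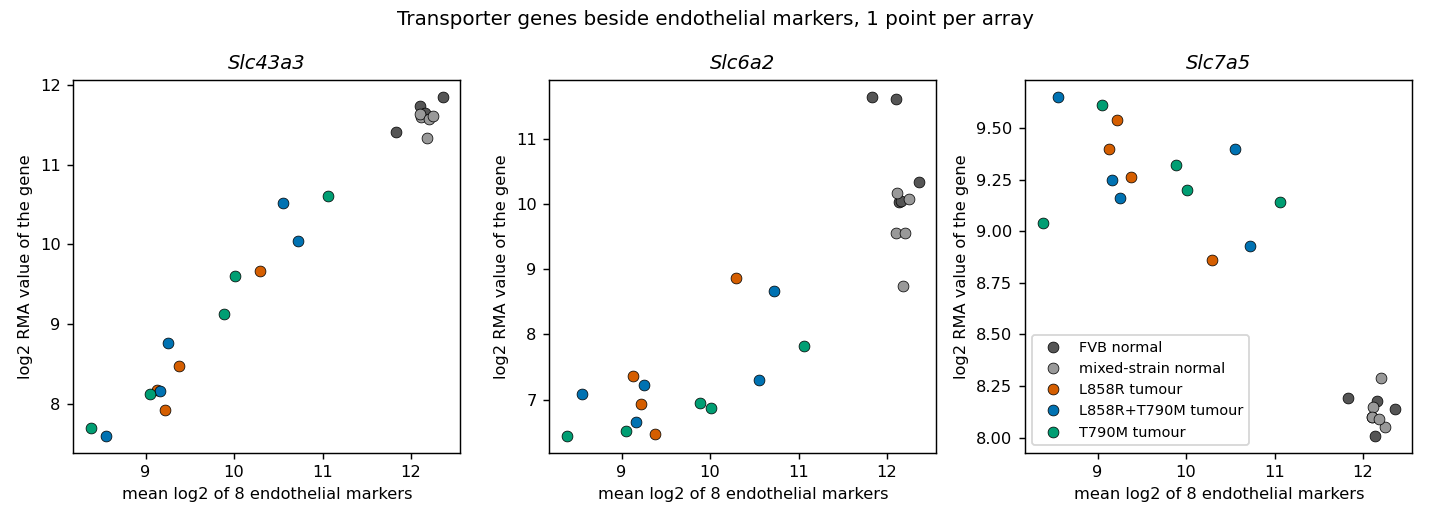
Log2 RMA value of Slc43a3, Slc6a2 and Slc7a5 (vertical axes, not starting at 0) against the mean log2 value of 8 endothelial markers (horizontal axis), 1 point per array, coloured by group. The tumours with the highest endothelial level, 10.29 to 11.06, are also the highest tumours in Slc43a3, and all tumours lie at 8.86 or above in Slc7a5.

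The heavy chain Slc3a2 fell while Slc7a5, its best known light chain, rose. Slc3a2 read 12.24, 12.45, 12.26, 12.37 and 12.42 in FVB normals and 12.37, 12.30, 12.34, 12.34 and 12.41 in mixed-strain normals. L858R tumours read 11.92, 12.05, 11.40 and 11.83, L858R+T790M tumours 11.43, 11.39, 11.61, 11.11 and 12.15, and T790M tumours 11.85, 12.34, 11.63, 11.39 and 11.66. T790M replicate 2 alone lay within the range of its normals. The differences were -0.55 ± 0.17, -0.81 ± 0.16 and -0.57 ± 0.16 (adjusted p = 0.0135, 0.000464 and 0.00739, limma); the L858R call was lost without L858R replicate 3 (-0.42, adjusted p = 0.0705). Slc3a2 and Slc7a5 were read by 1 probe set each. The same holds for Slc36a1, Slc7a8, Slc38a5, Slc7a10, Slc36a2 and Slc43a3, so agreement between probe sets could not be checked for any of these genes.

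The other heavy chain, Slc3a1, had group means of 6.18 to 6.50 and was not called (0.31 ± 0.13, 0.13 ± 0.12 and 0.18 ± 0.12). Its light chain Slc7a9, the cystine and dibasic amino acid carrier of kidney, had group means of 5.29 to 5.60 and was not called either. Of the further light chains of Slc3a2, Slc7a6 (y+LAT2) differed by 0.32 ± 0.24, 0.43 ± 0.22 and 0.47 ± 0.22, and Slc7a7 (y+LAT1) by -0.20 ± 0.12, -0.23 ± 0.12 and 0.07 ± 0.12, none of them called. Slc7a13, a renal relative of the light chains, differed by 0.04, -0.03 and -0.17 without a call, while another of its probe sets was called higher in L858R tumours (0.34, adjusted p = 0.000677, limma). Slc7a11 was not called by the probe set used (-0.07 ± 0.19, 0.45 ± 0.18 and 0.10 ± 0.18), whose mean over all arrays was 5.81. Its other probe set, with a mean of 5.53, was called higher in all 3 groups (0.99 ± 0.28, 1.07 ± 0.26 and 1.07 ± 0.26, adjusted p = 0.00638, 0.00262 and 0.00235 over all probe sets, limma).

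Slc1a4, the gene of the alanine, serine and cysteine carrier ASCT1, showed the opposite kind of disagreement. The probe set used was not called (-0.08 ± 0.37, 0.46 ± 0.35 and 0.14 ± 0.35), while both others were called lower in all 3 groups, by 0.98 and 1.31, 0.67 and 0.81, and 0.57 and 0.87 on the log2 scale. Slc1a3, the glutamate transporter GLAST, was lower in L858R+T790M tumours without overlap (-0.70 ± 0.20, adjusted p = 0.00675, limma), a call also made by 2 of its 5 other probe sets and not by the median over them all. Its differences of -0.44 ± 0.20 in T790M and -0.03 ± 0.21 in L858R tumours were not called, and another of its probe sets was called higher in L858R tumours (0.69, adjusted p = 0.0284, limma). The other glutamate carriers Slc1a1, Slc1a2, Slc1a6 and Slc1a7 were called in no group by the probe sets used, though another Slc1a2 probe set was called lower in L858R tumours (-0.68, adjusted p = 0.00416, limma).

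Other falls were small or uneven. Slc38a1 encodes SNAT1, a sodium-coupled relative of SNAT2. L858R tumours read 8.63, 8.72, 8.46 and 8.49, beside 8.86, 8.91, 9.07, 8.76 and 9.04 in mixed-strain normals. The values were 8.60, 8.53, 8.60, 8.56 and 8.57 in L858R+T790M tumours and, in T790M tumours, 8.67, 8.49, 8.66, 8.60 and 8.65, beside 8.99, 8.84, 8.78, 8.79 and 8.95 in FVB normals. No tumour reached its normals, and the groups fell by 0.35 ± 0.07, 0.30 ± 0.07 and 0.26 ± 0.07 (adjusted p = 0.000496, 0.00160 and 0.00495, limma). The second probe set was called lower in L858R+T790M and T790M tumours and not in L858R tumours. Slc43a1, a branched-chain amino acid carrier (LAT3), was lower in L858R (-0.46 ± 0.11) and T790M tumours (-0.31 ± 0.10), the second call being lost without T790M replicate 1 (adjusted p = 0.0516). Slc38a9, the lysosomal arginine sensor of mTORC1, was called lower in L858R+T790M (-0.27 ± 0.07) and T790M tumours (-0.20 ± 0.07), but 1 of its 6 other probe sets was called higher in the first, and the second call was lost without any array other than FVB normal 1 and T790M replicate 5 (-0.23 to -0.17, adjusted p up to 0.103). Slc36a4 (PAT4) fell in T790M tumours (-0.57 ± 0.21, adjusted p = 0.0387), without overlap, but the call was lost without any FVB normal or T790M replicate 2 or 4 (adjusted p up to 0.141).

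Among the monoamine and neutral amino acid carriers of brain and gut, Slc6a4, the serotonin transporter, was lower in L858R+T790M tumours (-0.64 ± 0.23, adjusted p = 0.0289) and T790M tumours (-0.84 ± 0.23, adjusted p = 0.00467, limma), and not called in L858R tumours (0.27). Its FVB normals read 7.88, 8.17, 7.82, 8.02 and 7.98, L858R+T790M tumours 7.62, 6.55, 7.50, 7.89 and 7.10, and T790M tumours 7.21, 6.70, 6.87, 7.15 and 7.73. The L858R+T790M arrays overlapped the normals, and that call was lost without any of FVB normals 2 and 4 and L858R+T790M replicates 2 and 5 (adjusted p up to 0.106) and against all 10 normal lungs. Slc6a15, a carrier of branched-chain amino acids and proline, varied widely. Its FVB normals read 7.79, 7.34, 6.88, 7.18 and 7.70 and L858R+T790M tumours 5.15, 5.13, 6.58, 6.90 and 5.63 (-1.50 ± 0.55, adjusted p = 0.0355). That call was lost without any of FVB normals 1, 2 and 5 and L858R+T790M replicates 1, 2 and 5 (adjusted p up to 0.0897). T790M tumours ran from 4.79 to 8.54 and L858R tumours from 6.48 to 9.21, with no call. Slc6a17 fell by 0.27 in T790M tumours and Slc6a18 by 0.27 in L858R+T790M tumours, both without overlap, though neither was called against all 10 normal lungs. Slc6a5 fell by 0.16 in T790M tumours, a call that ended without any of 7 arrays. Mean signals over all arrays were low for Slc6a18 (5.51) and Slc6a5 (6.19).

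Several well known carriers showed no call in any tumour group by the probe set used, which does not show that they were equal. Slc6a14 (ATB0,+), a broad carrier of lung epithelium, had group means of 9.10 to 10.28, and its differences were -0.12 ± 0.37, 0.14 ± 0.35 and -0.54 ± 0.35. Slc6a6, the taurine carrier, differed by -0.21, 0.08 and -0.22, with another probe set called lower in L858R tumours (-0.38, adjusted p = 0.0162, limma), and Slc6a8, the creatine carrier, differed by -0.12, 0.06 and -0.24. Slc7a1, the widely expressed arginine carrier CAT1, differed by -0.09, 0.07 and 0.34. The largest difference without a call was that of Slc6a20a, a proline carrier, in L858R+T790M tumours (-0.89 ± 0.82); its T790M tumours read 9.31, 5.33, 9.48, 4.97 and 10.20, far apart within 1 group. In all, 32 of the 63 genes were called in no tumour group by the probe set used.

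Some of these genes lie side by side on the chromosome, by the order of the protein-coding RefSeq genes of GRCm38. On chromosome 11 Slc36a3, Slc36a2 and Slc36a1 are adjacent: Slc36a2 fell and Slc36a1 rose in all 3 tumour groups, and Slc36a3 was not called. Slc36a1os, which is left out of that order, lies between Slc36a2 and Slc36a1. On chromosome 15 Slc38a1, Slc38a2 and Slc38a4 are adjacent: Slc38a1 fell and Slc38a2 rose in all 3 groups, and Slc38a4 rose in L858R tumours. On chromosome 2 Slc43a1 and Slc43a3 have 1 coding gene between them, and both were lower in L858R and T790M tumours.

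The next question was whether the tumour genotypes differed in these genes. L858R+T790M and T790M tumours, of the same strain label, were compared directly, and L858R tumours with each of them after subtracting the matching normal lungs. In none of these comparisons was a transporter gene called by limma: 0 of 63 beside 1.59% of all genes between L858R+T790M and T790M tumours, 0 beside 0.0715% between L858R and L858R+T790M, and 0 beside 0.418% between L858R and T790M. At an unadjusted p under 0.05 there were 10, 11 and 16 of 63 genes, 15.9%, 17.5% and 25.4%, beside 17.1%, 9.54% and 14.7% of all genes. The lowest adjusted p values were 0.0514 for Slc6a3, the dopamine transporter (0.36 ± 0.09 higher in L858R+T790M than in T790M tumours), and 0.0867 and 0.0608 for Slc36a2. These genes are named because of those values.

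Slc36a2 fell further in L858R tumours than in L858R+T790M tumours by 1.13 (95% interval of the strain-adjusted difference -1.64 to -0.61) and than in T790M tumours by 1.04 (-1.55 to -0.52). Slc38a5 and Slc7a10 had differences of the same sign, -1.43 (-2.32 to -0.55) and -1.16 (-1.90 to -0.41) against L858R+T790M and -1.45 (-2.33 to -0.56) and -1.33 (-2.08 to -0.59) against T790M tumours, with adjusted p from 0.0975 to 0.261. Part of each lies in the normal lungs: mixed-strain normals were higher than FVB normals by 0.63 for Slc36a2, 0.94 for Slc38a5 and 0.72 for Slc7a10, none of them called. In the tumours themselves the group means of Slc36a2 were 6.99 in L858R, 7.49 in L858R+T790M and 7.40 in T790M. The strain-adjusted difference thus takes in both the lower tumours and the higher normals of the FVB mixed label.

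Slc38a4, Slc7a2 and Slc7a8 were higher in L858R than in T790M tumours by 1.85 (95% interval 0.34 to 3.37), 1.08 (0.18 to 1.97) and 1.03 (0.17 to 1.90), with adjusted p = 0.242, 0.246 and 0.249 (limma). Slc6a4 differed by 0.91 (0.23 to 1.59) against L858R+T790M and 1.11 (0.43 to 1.79) against T790M tumours, with adjusted p = 0.336 and 0.121. For Slc7a5 the intervals were -0.41 to 0.36 and -0.39 to 0.38, and for Slc36a1 -0.39 to 0.21 and -0.38 to 0.23. None of these differences was called, and the intervals show how wide a range of differences these arrays leave possible.

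Between the sets of normal lungs 0 of 63 transporter genes were called by limma, beside 1.04% of all genes, and 14 had an unadjusted p under 0.05 (22.2%, beside 15.3% of all genes). The lowest adjusted p was 0.0534 (Slc6a16, 0.34 lower in mixed-strain normals). Slc1a5 was 0.57 ± 0.16 higher and Slc6a2 1.11 ± 0.45 lower in mixed-strain normals (adjusted p = 0.0781 and 0.232).

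Genes that work around these transporters were counted from lists of other carriers, partners and amino acid enzymes. These counts, and those of cell type markers, are to be read beside the shares of all genes. In L858R tumours 23.3% of all genes were called higher and 18.1% lower. The shares were 20.2% and 16.1% in L858R+T790M tumours and 21.9% and 17.9% in T790M tumours. The median difference of all genes was 0.05, 0.03 and 0.00. No list was tested as a set. Of 19 other carriers of amino acids and peptides, 8 were called higher and 2 lower in L858R tumours, 6 and 1 in L858R+T790M tumours and 5 and 1 in T790M tumours (median differences 0.39, 0.10 and 0.01). The di- and tripeptide carrier Slc15a2 rose by 2.93 ± 0.26 in L858R tumours, against 0.97 ± 0.24 and 1.03 ± 0.24 in the others, and it was called higher in L858R than in L858R+T790M and T790M tumours after strain adjustment (1.96 ± 0.35 and 1.90 ± 0.35, adjusted p = 0.0323 and 0.0180, limma); mixed-strain normals were lower in it than FVB normals by 1.25 ± 0.24 (adjusted p = 0.0167). Slc25a13, the mitochondrial aspartate and glutamate exchanger, rose by 0.64, 1.01 and 1.21, and Slc25a15, the mitochondrial ornithine carrier, by 0.72, 0.67 and 0.74. Of 8 partner and trafficking genes, 3, 3 and 4 were called higher and 1 lower in each group (medians 0.38, 0.25 and 0.18). Cd44, whose protein binds the cystine transporter, rose by 1.24, 0.76 and 0.70. Cltrn (collectrin), needed for apical Slc6a carriers, was called in T790M tumours (3.39 ± 1.21, adjusted p = 0.0297, limma), which read 3.98, 10.01, 6.36, 12.12 and 4.45. High values were not confined to that group. L858R tumours read 4.44, 4.92, 8.83 and 8.77, beside 3.80 to 3.98 in mixed-strain normals. L858R+T790M tumours read 5.98, 7.46, 8.40, 7.73 and 4.04, beside 3.82 to 4.11 in FVB normals. T790M replicate 1 and L858R+T790M replicate 5 lay within the FVB normal range.

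Of 20 genes of the ATF4 response, 8 were called higher and 3 lower in L858R tumours, 8 and 3 in L858R+T790M tumours and 11 and 1 in T790M tumours (medians 0.36, 0.34 and 0.38, beside 0.05, 0.03 and 0.00 for all genes). The serine synthesis gene Psat1 rose by 2.15 ± 0.20, 2.29 ± 0.19 and 2.41 ± 0.19, Trib3, a pseudokinase gene induced by stress, by 0.92, 1.24 and 1.74 and Cth, which makes cysteine, by 1.68, 0.90 and 1.56. Ddit3, which encodes CHOP, fell by 0.91, 0.86 and 0.64. Asns, asparagine synthetase, rose in T790M tumours (1.00 ± 0.16) and was lower in L858R+T790M than in T790M tumours by 0.88 ± 0.16 (adjusted p = 0.00966, limma). Slc38a2 and Slc7a5, also known ATF4 targets, differed between those tumours by 0.04 ± 0.13 and 0.02 ± 0.13. Of 22 genes of amino acid sensing and mTORC1, 7 were higher and 3 lower in L858R, 6 and 2 in L858R+T790M and 4 and 3 in T790M tumours (medians 0.10, 0.05 and -0.08). Sesn1, a leucine sensor, fell by 1.39, 0.90 and 0.89, and Eif2ak4, the kinase GCN2 that senses uncharged tRNA, rose by 0.97, 0.79 and 0.98.

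Enzymes that use the transported amino acids were counted in the same way. Of 8 glutamine and glutamate enzymes, 3, 4 and 5 were called higher in the 3 groups and none lower by limma, nor was any lower at an unadjusted p under 0.05 (medians 0.26, 0.36 and 0.54). Gpt2, an alanine aminotransferase, rose by 1.30, 0.90 and 1.18. Of 10 cystine and glutathione genes, 5, 5 and 3 were higher and 1 lower in each group (medians 0.48, 0.44 and 0.27), with Nfe2l2, which encodes NRF2, up by 0.55, 0.64 and 0.39. Of 12 arginine, creatine and taurine genes, 2, 4 and 4 were higher and 4, 1 and 2 lower (medians -0.05, -0.06 and 0.23). Arg2, which cleaves arginine, rose by 4.90 ± 0.34, 3.89 ± 0.32 and 3.98 ± 0.32, beside the uneven Slc7a2 and the uncalled Slc7a1. Cdo1, which oxidizes cysteine on the way to taurine, fell in each group (-2.77, -1.87 and -2.77). Of 11 genes that handle monoamines, glycine and GABA, 2, 0 and 2 were higher and 2, 1 and 1 lower (medians 0.14, -0.05 and -0.15), and at an unadjusted p under 0.05 still 0 were higher in L858R+T790M tumours by limma. Maoa, which degrades the substrates of Slc6a2 and Slc6a4, fell by 0.94, 0.93 and 0.52. Ddc, the decarboxylase that makes serotonin and dopamine, fell by 1.72 in L858R tumours and rose by 2.20 in T790M tumours, and differed between these after strain adjustment (-3.92 ± 0.76, adjusted p = 0.0187, limma).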

How the data were processed

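Each of the 24 samples was measured on 1 array; the labels say that flash-frozen lung or tumour tissue was pulverized and its RNA extracted with Trizol. The deposited values are log2 signals of 45101 probe sets, which per the submitters' processing notes were made by the authors using RMA (version and settings: not given in the sources used here). Of the probe sets, 34945 were annotated to 1 gene, 932 to several and 9160 to none, and 64 were controls. One probe set per gene, the one with the highest mean over the 24 arrays, gave 18193 genes, with symbols updated by Entrez ID where possible. limma 3.58.1 in R 4.3.3 was fitted to these genes with 5 group means and a trended empirical Bayes variance, and two-sided p-values were adjusted by Benjamini-Hochberg over all genes. The threshold for a call was an adjusted p of 0.05. Strain-adjusted comparisons subtract each tumour group's own normal lungs. The transporter genes and the lists were chosen with earlier results of these data known. Array values are given for genes called in some tumour group with an absolute log2 difference of at least 1 and no overlap of arrays, and for those called in all 3 groups in 1 direction; heavy and light chains and, per list, up to 3 called genes with the largest differences in each tumour comparison are named too. The array values or differences of the other transporter genes named (Slc1a5, Slc6a4, Slc6a15, Slc6a20a and those given by their differences), and of Ddit3 and Asns, were chosen after their values were seen. The fit was tested on simulated data. Alternatives were the median over probe sets, centring, renewed quantile normalization, leaving out low-signal genes or single arrays, no trend, array weights, fits to the compared groups alone, all normal lungs as 1 group, direct tumour differences and a replicate block. The number of arrays limits the precision.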

Additional observations from a re-analysis of the deposited data

Results flagged for a closer look

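Among 155 groups of arrays over the 31 transporter genes called in some tumour group, 10 single values lay far from the others of their group, where chance gives about 1 in 20 groups. In L858R+T790M replicate 3 these were Slc1a3 at 8.59, Slc36a2 at 8.21 and Slc38a5 at 7.40, each above the other 4 tumours of the group. Slc38a7 read 8.14 in L858R+T790M replicate 5 and 8.50 in T790M replicate 4, and Slc1a5 read 11.24 in the same T790M tumour. Among normal lungs, Slc36a1os read 6.15 in FVB normal 3, and mixed-strain normals held Slc38a6 at 9.25 in replicate 1, Slc6a9 at 9.56 in replicate 3 and Slc43a3 at 11.33 in replicate 5.

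For Slc6a18, an amino acid carrier known from kidney, every L858R tumour lay above the mean of its own normal lungs, and every L858R+T790M and T790M tumour lay below the mean of theirs. The differences between those differences were 0.36 against L858R+T790M and 0.24 against T790M tumours. In limma's test of the difference they had adjusted p = 0.215 and 0.276, past no threshold.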

How the results depend on the processing

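Of 59 calls of transporter genes in the 3 tumour comparisons, 44 held with any single array left out. Of them 38 held under every other fit that tested the gene. The fit without low-signal genes did not test all of these, for example the L858R calls of Slc7a12 and Slc43a1. Signs were followed only for the calls of 10 genes, those called in some tumour group with an absolute log2 difference of at least 1 and no overlap. None of those calls changed sign. With single arrays left out the counts of called genes ran from 17 to 22 in L858R, 16 to 21 in L858R+T790M and 14 to 20 in T790M tumours, from 0 to 2 between L858R+T790M and T790M tumours, 0 to 0 between L858R and L858R+T790M, 0 to 1 between L858R and T790M, and 0 to 2 between the normal lungs. Asking also for a 2-fold difference left 10, 7 and 6 genes, and an adjusted p under 0.01 left 11 in T790M tumours. Between L858R+T790M and T790M tumours renewed quantile normalization called 1 gene (Slc6a3) and array weights 1 (Slc7a3). Without L858R+T790M replicate 2, 2 genes were called (Slc38a6 and Slc7a2), and without T790M replicate 2 or 5, 1 (Slc6a3). Between L858R and L858R+T790M tumours array weights called 1 (Slc36a2), a fit to the compared groups alone 1 (Slc36a2) and the direct tumour difference 1 (Slc7a12). Between L858R and T790M tumours array weights called 1 (Slc36a2), the compared groups alone 2 (Slc36a2 and Slc7a10) and the direct difference 4 (Slc36a4, Slc7a2, Slc7a3 and Slc7a12). Without L858R replicate 3 the call was Slc7a12, and without T790M replicate 4 it was Slc36a2. Between normal lungs the median over probe sets called 1 (Slc6a16), array weights 15, the compared groups alone 9, and leaving out mixed-strain normal 3 gave 2 (Slc6a16 and Slc6a21). The causes were not tested. The replicate numbers were not taken to pair the samples, since neither the labels nor the data meet the rule that every same-numbered pair correlate over 0.1. Between L858R+T790M and T790M tumours 4 of 5 pairs did (up to 0.44), between T790M tumours and FVB normals 3 of 5 (up to 0.215), between L858R+T790M tumours and FVB normals 1 of 5, and between L858R tumours and mixed-strain normals 0 of 4. In the same order 2 of 5, 3 of 5, 0 of 5 and 0 of 4 samples correlated best with their own number. With the replicate number as a block the counts were 19, 21 and 19 in the 3 tumour groups and 0 in each of the other comparisons.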

Other observations

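Markers of airway and immune cells were measured beside the transporters. All 5 ciliated markers were called lower in each tumour group (median differences -2.20 in L858R, -2.55 in L858R+T790M and -1.96 in T790M tumours), and all 4 T cell markers fell by medians of 1.00, 0.92 and 0.80 on the log2 scale. Of 3 neutrophil markers, all were called lower in T790M tumours and 0 in the other groups by limma. In those groups 0 (L858R) and 1 (L858R+T790M) were lower at an unadjusted p under 0.05. No neutrophil marker was called between tumour groups, which does not show that the groups were equal. The median differences were 1.85 for L858R+T790M against T790M tumours and, after strain adjustment, -0.37 for L858R against L858R+T790M and 1.32 for L858R against T790M tumours. Of 4 proliferation markers measured, 4, 2 and 4 were called higher, with medians of 1.59, 0.86 and 1.75.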
